A study of Mus musculus with 6 samples.

Results

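The genes of endocannabinoid signalling were examined in bulk RNA-seq counts of mouse tail tendon. They comprised 9 genes, chosen by symbol among the 44788 symbols of the count table: the receptor genes *Cnr1*, *Cnr2* and *Gpr55*, the genes for synthesis of 2-arachidonoylglycerol, *Dagla* and *Daglb*, the genes for its hydrolysis, *Mgll* and *Abhd6*, and *Napepld* and *Faah*, which make and degrade anandamide. *Cnr1* led to the choice because its rise in *Mkx*-/- tendons was among the largest in these data, so its values are a description without a test, and the other 8 genes were added for their role. Tail tendons of WT and *Mkx*-/- mice of strain C57BL/6 gave 3 libraries per genotype, from mice aged 3 weeks by the sample labels (the text of the study gives a slightly older age). The labels name no treatment. *Mkx* encodes the homeobox transcription factor Mohawk of tendon cells, and the *Mkx*-/- mice serve as a model of heterotopic ossification, in which bone forms inside tendons. The allele is not described in the sources used here. The labels do not say whether a library came from 1 mouse or from several.

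Endocannabinoids are lipid messengers that cells make on demand from membrane phospholipids. Diacylglycerol lipases (*Dagla*, *Daglb*) release 2-arachidonoylglycerol, and the phospholipase D encoded by *Napepld* releases anandamide. Both lipids bind the G protein-coupled receptors CB1 (*Cnr1*), best known from neurons, and CB2 (*Cnr2*), best known from leukocytes, which act through Gi/o proteins to lower cyclic AMP. Monoacylglycerol lipase (*Mgll*), *Abhd6* and fatty acid amide hydrolase (*Faah*) end the signal. In the skeleton, CB1 and CB2 are known from nerve endings, osteoblasts, osteoclasts and chondrocytes.

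The libraries held between 10835070 and 14160301 counts. *Mkx* itself, checked first, had 1825, 1381 and 1685 counts in WT and 620, 589 and 491 counts in *Mkx*-/- libraries, so reads on the targeted gene were fewer but remained, and its log2 fold change was -1.60 (standard error 0.16). WT replicate 3 was the only library with reads on the Y-linked gene *Ddx3y* (301 counts) and had 1 count on *Xist*, for which the remaining libraries held 1289 to 1866 counts. *Col1a1*, *Col1a2* and *Sparc* took 42.0% to 48.5% of the counts in WT and 28.35% to 34.8% in *Mkx*-/- libraries. Levels were therefore scaled with TMM and are given as normalized CPM (counts scaled to a common library size). The quasi-likelihood test of edgeR was applied to 14550 genes with genotype as the only term. A gene was taken to rise or fall at an adjusted p under 0.05, which 3.18% of all tested genes did upward and 2.26% downward. More than 2-fold, these shares were 1.89% and 1.33%. The split depended on the scaling: 463 genes rose and 329 fell with TMM, against 1358 and 197 when only library size was scaled, which moved the median log2 fold change of all genes from -0.004 to 0.25. The p-values measure the spread between these libraries, and in bulk tissue fewer cells of a type and less RNA per cell cannot be told apart. Of the 9 genes, 8 had enough counts to be tested. Among the 7 tested genes other than *Cnr1*, 1 rose, 0 fell and 6 did not pass the test, beside the 5.44% of all genes that passed in either direction. The median log2 fold change of these 7 genes was -0.09. *Cnr1* passed the low-count filter only through its *Mkx*-/- libraries.

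*Cnr1* encodes CB1, the receptor that gives cannabinoids their action on the nervous system. Its gene spans 34011568 to 34035806 on chromosome 4 of mm9, plus strand. The libraries held 15, 3 and 6 *Cnr1* counts in WT replicates 1, 2 and 3, and 205, 316 and 211 counts in *Mkx*-/- replicates 1, 2 and 3. The lowest of these, 3 counts, has an exact 95% Poisson interval of 0.619 to 8.77 counts, which covers counting error only. As normalized CPM these were 1.18, 0.294 and 0.481 in WT and 18.8, 22.2 and 16.7 in *Mkx*-/- libraries, with means of 0.652 ± 0.468 and 19.2 ± 2.77 CPM (SD, n = 3 each). All 3 *Mkx*-/- libraries lay far above all 3 WT libraries, and the *Mkx*-/- libraries were close to each other, whereas the WT libraries differed among themselves by the few counts they held. The fitted log2 fold change was 4.82 (standard error 0.35, 95% interval 4.02 to 5.62), a 28.2-fold difference. It ranged from 4.50, without WT replicate 2, to 5.57, without WT replicate 1, when each library was left out in turn.

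**Figure D1:**
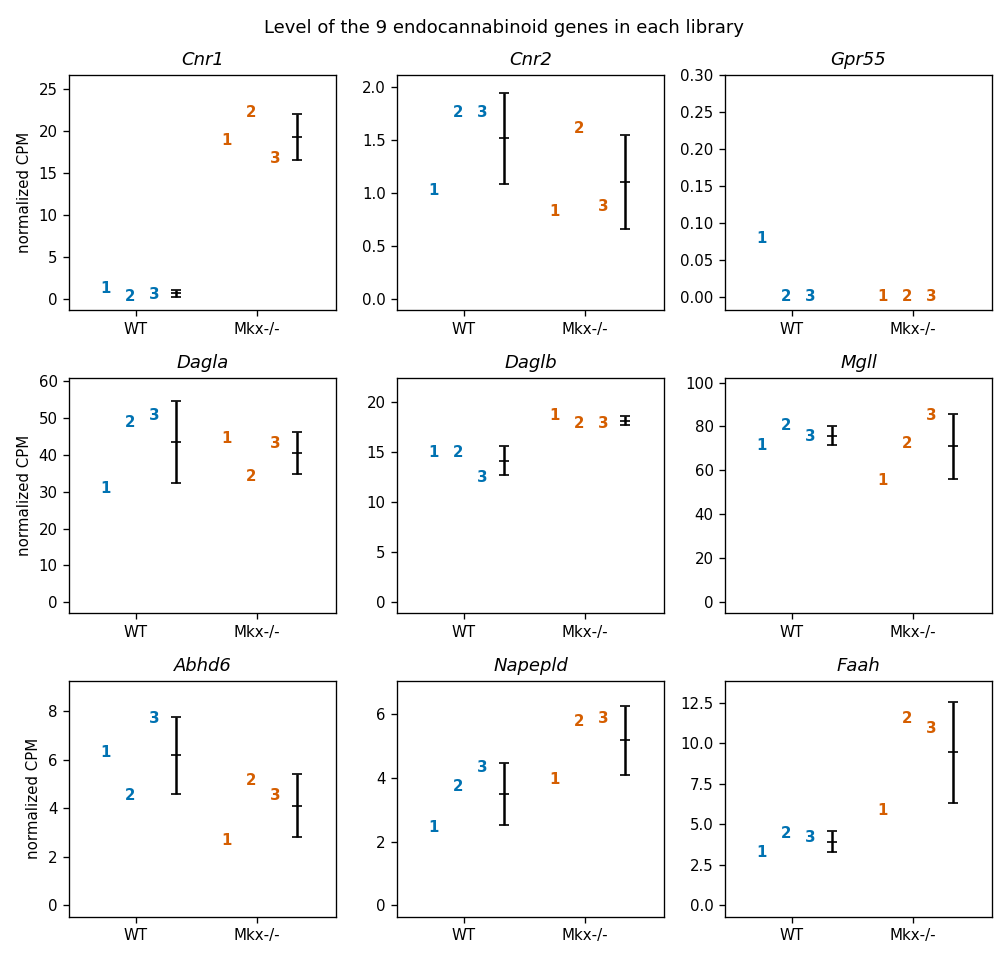
Each panel plots 1 gene, with normalized CPM on the vertical axis and the genotype on the horizontal axis. The digits are the replicate libraries and the bars give the mean ± SD (n = 3, not drawn for *Gpr55*). *Cnr1* is at 1.18 CPM or below in WT and at 16.7 CPM or above in *Mkx*-/- tendons, *Faah* and *Daglb* also show no overlap between the genotypes, and the other genes overlap or, for *Gpr55*, are near 0.

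The promoter windows of *Cnr1* and *Faah* are shown because these are the genes whose levels were higher by more than 2-fold. They come from RefSeq on build GRCm38.p6, not on the mm9 build of the gene positions given in the rest of the text, and run from 250 bases before to 50 bases after an annotated start. The *Cnr1* window is that of the most upstream of 3 annotated starts, chr4:33924014-33924313 on the plus strand, and that of *Faah* is chr4:116017875-116018174 on the minus strand. Capitals mark the GC box GGGCGG on either strand.
Cnr1: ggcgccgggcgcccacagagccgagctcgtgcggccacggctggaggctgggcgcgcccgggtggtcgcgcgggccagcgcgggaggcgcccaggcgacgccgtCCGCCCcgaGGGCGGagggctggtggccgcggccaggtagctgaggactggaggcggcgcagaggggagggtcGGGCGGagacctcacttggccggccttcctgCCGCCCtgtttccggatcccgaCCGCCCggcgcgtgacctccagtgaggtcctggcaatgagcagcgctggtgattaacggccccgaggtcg
Faah: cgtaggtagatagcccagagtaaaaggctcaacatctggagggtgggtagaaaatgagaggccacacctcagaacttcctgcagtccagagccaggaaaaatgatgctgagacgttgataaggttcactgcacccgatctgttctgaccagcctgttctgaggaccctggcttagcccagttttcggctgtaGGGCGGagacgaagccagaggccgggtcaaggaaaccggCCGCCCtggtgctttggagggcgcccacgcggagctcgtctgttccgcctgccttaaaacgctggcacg
The most upstream *Cnr1* window was 76.3% G or C and held 5 GC boxes and 40 CG dinucleotides, and the *Faah* window was 57.7% G or C and held 2 GC boxes and 16 CG dinucleotides. The other *Cnr1* windows, at the starts further downstream, held 0 GC boxes each and were 69.0% and 46.3% G or C with 33 and 5 CG dinucleotides. Over all 32851 windows of this length the median was 52.7% G or C and 7 CG dinucleotides, and 35.7% held at least 1 GC box. The sequence ACANNTGT, which reads the same on both strands and is known to be bound by Iroquois homeodomain proteins, the relatives of Mohawk, was not found in any of the 3 *Cnr1* windows or in the *Faah* window, and was found in 7.38% of all windows. Of the 9 genes, 8 had a window in this table. None of these matches was tested as a site of binding.

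*Cnr2* encodes CB2 and lies on chromosome 4 from 135451309 to 135476122 in mm9, on the same chromosome as *Cnr1* and *Faah* but far from both. The level of *Cnr2* was 1.02, 1.77 and 1.76 CPM in WT and 0.824, 1.62 and 0.872 CPM in *Mkx*-/- libraries, with overlap between the groups. The log2 fold change was -0.43 (95% interval -1.34 to 0.49, adjusted p = 0.577). The libraries held 9 to 23 *Cnr2* counts each, and the interval includes both a fall and a rise. B-cell markers, for cells in which CB2 is abundant, summed to 4.81, 2.16 and 0.881 CPM in WT and 0.641, 6.46 and 0.872 CPM in *Mkx*-/- libraries, and their part in the *Cnr2* level was not tested. *Gpr55* encodes a receptor for lysophosphatidylinositol that also responds to some cannabinoids. A single *Gpr55* count (1) was found, in WT replicate 1. The other 5 libraries had 0 counts, for which a floor of 3 counts per library was taken (0.211 to 0.294 CPM, a simpler limit than the exact Poisson interval used for *Cnr1*), and the gene was not tested. Its gene overlaps *4933407L21Rik* on the opposite strand by 71 exonic bases, so even this count cannot be assigned with certainty. On the CPM scale, without regard to gene length, the *Mkx*-/- libraries held many more reads of *Cnr1* than of the other receptor genes.

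Both genes that make 2-arachidonoylglycerol were detected in every library. On mm9, *Dagla* spans 10319755 to 10379367 of chromosome 19 (minus strand) and *Daglb* spans 144225361 to 144265310 of chromosome 5 (plus strand). The level of *Dagla* was 30.8, 49.0 and 50.8 CPM in WT and 44.5, 34.1 and 43.2 CPM in *Mkx*-/- libraries. All 3 *Mkx*-/- libraries fell inside the WT range, and the log2 fold change was -0.10 (95% interval -0.57 to 0.37, adjusted p = 0.821). In WT libraries *Daglb* had 14.97, 15.02 and 12.5 CPM, and in *Mkx*-/- libraries 18.7, 17.9 and 17.8 CPM. Its groups did not overlap, as held for 14.6% of all tested genes upward and 13.6% downward (28.2% in all). Its log2 fold change of 0.36 (standard error 0.13, 95% interval 0.06 to 0.66) did not pass the test after adjustment (adjusted p = 0.149).

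The hydrolases of 2-arachidonoylglycerol were *Mgll*, on chromosome 6 from 88674406 to 88778354, and *Abhd6*, on chromosome 14 from 8835416 to 8889069 in mm9. The 3 WT libraries had 71.5, 80.4 and 75.6 CPM of *Mgll* and the *Mkx*-/- libraries had 55.5, 72.4 and 85.1 CPM. The *Mkx*-/- libraries spread on both sides of the WT range, and the log2 fold change was -0.09 (95% interval -0.47 to 0.28, adjusted p = 0.782). A lincRNA on the opposite strand, *Gm16628*, covers 90 exonic bases of *Mgll*. *Abhd6*, a membrane-bound hydrolase that acts where the lipid is made, had 6.30, 4.51 and 7.69 CPM in WT libraries, against 2.66, 5.13 and 4.52 CPM in *Mkx*-/- libraries. *Mkx*-/- replicate 1 was the lowest, the groups overlapped, and the log2 fold change of -0.58 (95% interval -1.26 to 0.09) did not pass the test (adjusted p = 0.290).

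Of the anandamide genes, *Faah*, which degrades anandamide, rose. Its gene spans 115639750 to 115690531 of chromosome 4 in mm9 (minus strand), and no other annotated gene overlaps it. Its level was 3.23, 4.42 and 4.17 CPM in WT and 5.86, 11.5 and 10.9 CPM in *Mkx*-/- libraries, with means of 3.94 ± 0.625 and 9.44 ± 3.11 CPM (SD, n = 3 each). All 3 *Mkx*-/- libraries were above all 3 WT libraries, and *Mkx*-/- replicate 1 lay nearest to WT. The log2 fold change was 1.27 (standard error 0.28, 95% interval 0.62 to 1.92, edgeR adjusted p = 0.0414), a 2.41-fold difference. DESeq2 gave 1.26 (adjusted p = 0.00374). Without WT replicates 1, 2 and 3 or *Mkx*-/- replicates 2 and 3 the edgeR adjusted p was 0.0619, 0.106, 0.117, 0.123 and 0.128, and only without *Mkx*-/- replicate 1 did it pass (adjusted p = 0.0155), whereas the log2 fold change stayed between 1.10 and 1.49.

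*Napepld*, which makes anandamide, lies on chromosome 5 from 21168719 to 21207214 in mm9. *Napepld* had 2.44, 3.73 and 4.33 CPM in WT libraries, against 3.94, 5.76 and 5.87 CPM in *Mkx*-/- libraries, where only *Mkx*-/- replicate 1 lay inside the WT range. The log2 fold change of 0.57 (95% interval -0.06 to 1.21) did not pass the test (adjusted p = 0.264). For both anandamide genes *Mkx*-/- replicate 1 was the lowest of its group, as it also was for *Cnr2*, *Mgll* and *Abhd6*. Schwann cell markers, for the glia of peripheral nerve, had the same low library. They summed to 5999.6, 8024.8 and 8271.1 CPM in WT and to 9631.6, 15740.4 and 17990.6 CPM in *Mkx*-/- replicates 1, 2 and 3. All 11 tested markers were higher, with 0 past the test and a median log2 fold change of 0.87. The low library was not particular to nerve. Macrophage and leukocyte markers also summed lowest there (384 CPM, against 478 and 391 CPM in *Mkx*-/- replicates 2 and 3), whereas skeletal muscle markers summed highest there. The part of nerve tissue in the *Faah* and *Napepld* levels was not tested.

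**Figure D2:**
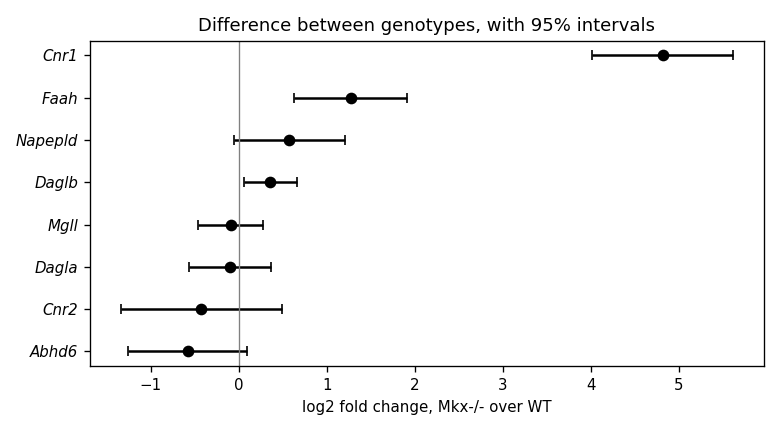
The horizontal axis gives the log2 fold change of *Mkx*-/- over WT tendons and the bars its 95% interval from edgeR, for the 8 tested genes. *Cnr1*, chosen for this difference, is at 4.82, *Faah* at 1.27, and the other 6 lie between -0.58 and 0.57.

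To compare the genes with each other, levels were divided by the length of their exons (normalized CPM per kilobase). In WT tendon the order was *Mgll* with 15.6 ± 0.918, *Dagla* with 7.57 ± 1.92, *Abhd6* with 2.84 ± 0.733, *Daglb* with 2.49 ± 0.254, *Napepld* with 0.885 ± 0.243, *Faah* with 0.503 ± 0.0798, *Cnr2* with 0.381 ± 0.107, *Cnr1* with 0.101 ± 0.0726 and *Gpr55* last (mean ± SD, n = 3 each). *Abhd6* and *Daglb* overlapped in their ranges, as did *Faah* and *Cnr2*, and the other neighbours in this order did not. In *Mkx*-/- tendon *Mgll* with 14.6 ± 3.05 and *Dagla* with 7.06 ± 0.9895 still led. *Cnr1* stood in place 4 with 2.98 ± 0.429, behind *Daglb* with 3.20 ± 0.0826, and the ranges of these genes overlapped. *Abhd6* with 1.89 ± 0.593, *Napepld* with 1.31 ± 0.274 and *Faah* with 1.21 ± 0.397 followed, each overlapping the next, and *Cnr2* with 0.277 ± 0.111 was below them without overlap. Among the 12996 tested genes with an annotated length, *Cnr1* was above 0.516% of genes in WT and above 42.4% in *Mkx*-/- tendon. *Mgll* was above 84.3% and 82.4%, *Dagla* above 68.6% and 66.1%, and *Daglb* above 37.5% and 44.2%.

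**Figure D3:**
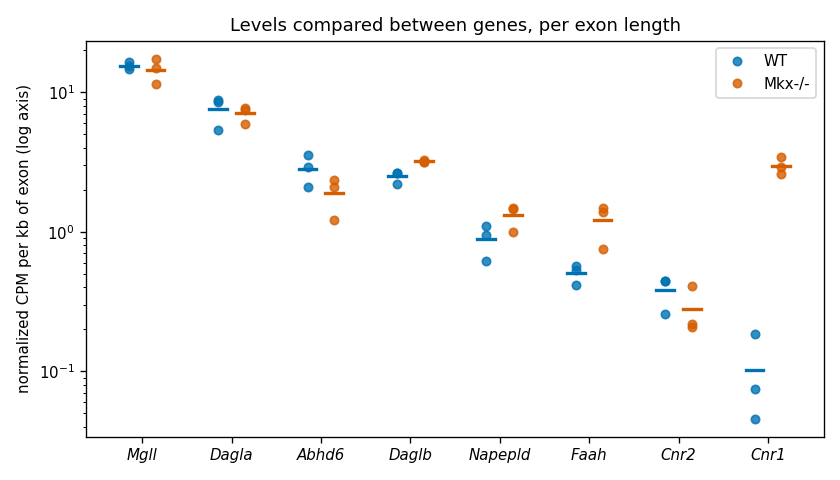
Levels per kilobase of exon are plotted on a log axis for the 8 tested genes in the order of WT tendon. Points are libraries and short lines the means of 3 libraries per genotype. *Cnr1* moves from the lowest place in WT to a level that overlaps that of *Daglb* in *Mkx*-/- tendon, and *Mgll* is the highest in both.

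Further genes of endocannabinoid metabolism and the other targets of these lipids were listed as well. Of 18 metabolic genes, such as other lipases, fatty acid-binding proteins and oxygenases, 13 were tested, and 0 rose and 0 fell, with a median log2 fold change of 0.26 beside -0.004 over all tested genes. The most abundant were *Abhd4*, a lysophospholipase on another route to anandamide, with a log2 fold change of -0.10 (adjusted p = 0.865), and *Pla2g16*, a phospholipase and acyltransferase, with 0.12 (adjusted p = 0.727). In *Abhd4*, WT replicate 1 stood apart at 159 CPM against 82.6 and 82.5 CPM in the other WT libraries and 85.9 to 119 CPM in *Mkx*-/- libraries. *Hrasls*, an acyltransferase gene of the same list, was named after its values were seen. It had 0, 1 and 3 counts in WT libraries and 14, 11 and 10 counts in *Mkx*-/- libraries. *Hrasls* passed the low-count filter only through its *Mkx*-/- libraries, so these counts are a description without a test. Of 11 further targets, which included TRP channels and PPAR nuclear receptors, 4 were tested and 0 passed, with a median of -0.30. The most abundant was *Ppard*, with 34.2 ± 2.31 CPM in WT tendon against 28.6 ± 3.28 CPM in *Mkx*-/- tendon (SD, n = 3 each, adjusted p = 0.286), followed by *Trpv4*, a mechanosensitive calcium channel (log2 fold change -0.21, adjusted p = 0.622). *Trpa1*, *Trpm8* and *Gpr119* had 0 counts in every library.

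Among 28 genes for CB1-binding proteins, Gi/o proteins, adenylyl cyclases, arrestins, receptor kinases and channels, 21 were tested. Of these 2 rose and 1 fell, beside 3.18% upward and 2.26% downward of all tested genes. The median log2 fold change of the 21 was 0.03. *Grk5*, a kinase that phosphorylates active receptors, rose from 15.9, 11.7 and 12.1 CPM in WT to 27.0, 33.8 and 30.5 CPM in *Mkx*-/- libraries (log2 fold change 1.201 ± 0.16 standard error, adjusted p = 0.00588). *Arrb1*, which encodes β-arrestin, the protein that binds phosphorylated receptors and ends G protein coupling, fell from 127, 105 and 97.5 CPM to 65.8, 65.7 and 62.3 CPM (log2 fold change -0.76 ± 0.13 standard error, adjusted p = 0.0168). For both genes the groups did not overlap, as held for 28.2% of all tested genes. *Grk5* passed without any 1 library, whereas *Arrb1* did not without WT replicate 2 or *Mkx*-/- replicate 2 or 3 (adjusted p = 0.0577, 0.0649 and 0.0695) or with scaling by library size only (log2 fold change -0.52, adjusted p = 0.0848). *Gnaz*, a Gi-class alpha subunit, rose from 2.60, 2.26 and 2.003 CPM to 4.76, 4.22 and 5.39 CPM (log2 fold change 1.06 ± 0.23 standard error, adjusted p = 0.0359), a call that held without WT replicate 1 and for no other library left out (adjusted p up to 0.122). The most abundant alpha subunit, *Gnai2*, had 303 ± 34.4 CPM in WT tendon against 314 ± 19.7 CPM in *Mkx*-/- tendon (SD, n = 3 each, log2 fold change 0.05, adjusted p = 0.862), and *Adcy6*, an adenylyl cyclase, had a log2 fold change of -0.04 (adjusted p = 0.869). The CB1-binding protein gene *Cnrip1* had 0.45 (adjusted p = 0.192). The channel genes *Kcnj3* and *Kcnj6*, through which CB1 acts in neurons, had 0 counts in every library.

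Phospholipase C enzymes supply the diacylglycerol from which 2-arachidonoylglycerol is made. Of 10 genes 9 were tested, 1 rose and 1 fell, beside 3.18% upward and 2.26% downward of all tested genes. The median log2 fold change of the 9 was 0.17. *Plce1* rose from 30.02, 26.6 and 24.3 CPM to 53.3, 47.1 and 47.4 CPM (log2 fold change 0.87, standard error 0.13, adjusted p = 0.00951), but did not pass without WT replicate 2 or 3 (adjusted p = 0.0535 and 0.0512). *Plcd3* fell from 63.7, 34.6 and 34.9 CPM to 17.5, 22.1 and 22.5 CPM (log2 fold change -1.10, standard error 0.25, adjusted p = 0.0428). WT replicate 1 was far above the other WT libraries, and the groups did not overlap, as held for 13.6% of all tested genes downward. The call held only without WT replicate 1 (log2 fold change -0.75, adjusted p = 0.0210) among the 6 fits without a library (adjusted p up to 0.107). *Plcg1* and *Plcd1* were the most abundant, with log2 fold changes of -0.51 (edgeR adjusted p = 0.0825, DESeq2 adjusted p = 0.0382) and 0.04 (edgeR adjusted p = 0.871). The receptors for sphingosine 1-phosphate and some of those for lysophosphatidic acid are near relatives of CB1 and CB2. Of 15 such and similar receptor genes 9 were tested and 0 passed, with a median of 0.19 and a range of log2 fold changes between -0.85 (*Lpar6*) and 0.82 (*S1pr3*). The most abundant were *Lpar1*, with -0.27 (adjusted p = 0.190), and *S1pr2*, with 0.20 (adjusted p = 0.506).

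The genes around *Cnr1* were read from the same fit. Within 1 Mb on either side, 46 genes are annotated in mm9 and 17 were tested. Of these 0 rose and 1 fell, beside the 5.44% of all tested genes that passed in either direction. There were 13 negative and 4 positive log2 fold changes, with a median of -0.24 beside -0.004 over all tested genes. Whether this differs from other regions was not tested. *Pm20d2*, a dipeptidase gene 734.9 kb before *Cnr1*, fell from 4.81, 4.42 and 4.49 CPM to 2.20, 2.53 and 1.51 CPM (log2 fold change -1.13, adjusted p = 0.0417), but did not pass in any of the 6 fits without a library (adjusted p = 0.0666 to 0.117). The nearest tested gene, *Spaca1*, which encodes a sperm acrosome protein, lies 76.0 kb after *Cnr1*. Its WT libraries had 0.473, 0.491 and 0.401 CPM and its *Mkx*-/- libraries 1.47, 1.62 and 0.793 CPM. The groups were without overlap, as held for 14.6% of all tested genes upward. Its log2 fold change of 1.49 (95% interval 0.52 to 2.46) did not pass the test (adjusted p = 0.0815). With scaling by library size only it did (log2 fold change 1.74, adjusted p = 0.0364). *Spaca1* passed the low-count filter only through its *Mkx*-/- libraries, so its difference is given as a description. Beyond it, *Akirin2*, which encodes a nuclear protein that acts in transcription, was nearly level at 12.6 ± 0.119 and 12.3 ± 0.146 CPM (SD, n = 3 each, log2 fold change -0.04). *Rngtt*, the capping enzyme gene, had 0.50. The remaining tested genes *Gm11942*, *Rragd*, *4933421O10Rik*, *Ube2j1*, *Gabrr2*, *Pnrc1*, *Gm12751*, *Gm12350*, *Orc3*, *Rars2*, *Slc35a1*, *Zfp292* and *Mob3b* had log2 fold changes between -0.66 (*Gabrr2*) and 0.17 (*Mob3b*), and none passed the test.

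**Figure D4:**
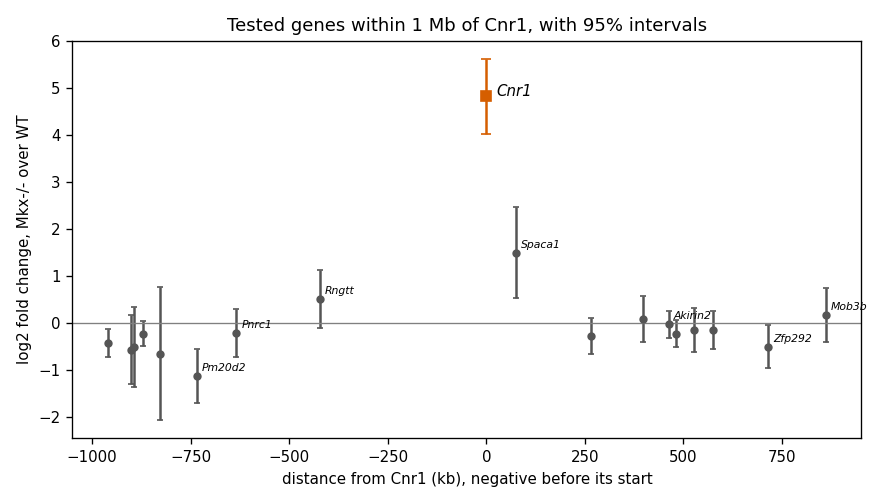
The horizontal axis gives the distance from *Cnr1* in kb and the vertical axis the log2 fold change of *Mkx*-/- over WT tendons with its 95% interval. *Cnr1* (square) is at 4.82, *Spaca1* at 1.49 and *Pm20d2* at -1.13, and the other tested genes lie between -0.66 and 0.50.

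The genes whose pattern over the 6 libraries was most like that of *Cnr1* were found by Pearson correlation of log2(CPM + 0.5) among the 10294 tested genes whose mean over the libraries reached 5 CPM. Among these were *Timm10*, a mitochondrial import chaperone gene (r = 0.997), *Cobll1* (r = 0.997), *Spry1*, a feedback inhibitor of receptor tyrosine kinase signalling (r = 0.996), and *Specc1* (r = 0.995). The 6 points fall into the 2 genotypes, and 15 genes had an r above 0.99, so the order among them is a description only. Their sizes differed widely from that of *Cnr1*: *Spry1* had 37.3, 30.7 and 30.7 CPM in WT libraries, against 129, 121 and 119 CPM in *Mkx*-/- libraries (log2 fold change 1.90), *Specc1* had a log2 fold change of 2.05, *Cobll1* 0.63 and *Timm10* 0.52. In all 4, WT replicate 1 was the highest WT library, as it was for *Cnr1*, a likeness that the choice by correlation favours. Of the endocannabinoid genes above 5 CPM on average, *Daglb* (r = 0.899) and *Faah* (r = 0.832) were nearest to *Cnr1*.

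Markers of the cells in which these genes are known were measured beside them. Tendon markers were present throughout, with 1 of 10 higher past the test (*Thbs4*), 0 lower, 6 of 10 negative and a median log2 fold change of -0.22. *Col1a2*, *Scx* and *Egr1* had log2 fold changes of -1.02, -1.14 and -1.13. These did not pass with edgeR (adjusted p = 0.0933, 0.106 and 0.0771) but passed with DESeq2 (adjusted p = 4.19e-07, 0.0150 and 0.00622). Upward, *Comp* had 0.88 (edgeR adjusted p = 0.0598, DESeq2 adjusted p = 0.00201) and *Tnc* had 1.13 (edgeR adjusted p = 0.135, DESeq2 adjusted p = 0.214). Neuron markers summed to 8.04, 12.7 and 9.45 CPM in WT and 21.8, 24.2 and 27.3 CPM in *Mkx*-/- libraries. Of 12, 5 were tested and 1 rose, *Uchl1*, from 3.61 ± 0.628 to 12.4 ± 1.79 CPM (SD, n = 3 each). All 5 tested markers were positive, with a median log2 fold change of 1.22, which is the value of *Nefm*. *Prph*, of peripheral neurons, had 1.10, 0.687 and 0.320 CPM in WT libraries, against 2.47, 2.25 and 2.30 CPM in *Mkx*-/- libraries (log2 fold change 1.71). Both *Prph* and *Nefm* passed the low-count filter only through their *Mkx*-/- libraries, so their differences are a description without a test. The filter favours the positive direction of these genes, and therefore also the count of positive markers and the median. *Stmn2*, *Nefl* and *Nefm* were also without overlap, at higher levels in *Mkx*-/- libraries, as held for 14.6% of all tested genes. *Nefl* had only 2, 1 and 0 counts in WT libraries and 5, 8 and 3 counts in *Mkx*-/- libraries. The groups overlapped for *Tubb3* (log2 fold change 0.16), *Gap43* (0.49) and *Nefh* (not tested). *Snap25*, *Syt1*, *Rbfox3* and *Elavl4* had at most 3 counts in any library. Skeletal muscle markers summed to between 111 and 475 CPM in WT and to 3356.3, 1619.5 and 649.9 CPM in *Mkx*-/- replicates 1, 2 and 3, with 5 of 18 past the test, all upward. Endothelial markers summed to between 64.4 and 81.4 CPM in WT and between 111 and 154 CPM in *Mkx*-/- libraries, with 1 of 10 past the test and 2 negative. The gene past the test, *Erg*, made up part of this difference, with 6.78, 8.44 and 9.69 CPM in WT and 44.1, 37.1 and 26.9 CPM in *Mkx*-/- libraries. *Tek*, another abundant marker of this list, was level (log2 fold change 0.02, edgeR adjusted p = 0.960). Mural cell markers summed to between 336 and 400 CPM in WT, to 356 and 352 CPM in *Mkx*-/- replicates 1 and 2 and to 927 CPM in replicate 3, with 0 of 8 past the test. Macrophage and leukocyte markers summed to between 603 and 655 CPM in WT and between 384 and 478 CPM in *Mkx*-/- libraries, with 3 of 10 lower past the test. Of the chondrocyte markers 3 of 9 tested rose. Of the adipocyte markers 1 of 4 tested rose, *Slc2a4*, which muscle also expresses, *Adipoq* and *Plin1* had at most 9 counts in any library, and *Lep*, not tested with edgeR, had 10, 5 and 11 counts in WT and 0 in each *Mkx*-/- library (DESeq2 adjusted p = 0.00484). Of the tested osteoblast, keratinocyte and B-cell markers 0 of 2, 0 of 5 and 0 of 1 passed. The part of these cells in the *Cnr1* level was not tested.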

How the data were processed

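The 6 libraries were bulk RNA-seq of tail tendon, 3 per genotype. The authors sequenced on the Ion Proton system, removed adaptor and low-quality reads, aligned to mm9 with MapSplice and deposited raw counts per gene symbol. The counting program, its annotation and its handling of strand are not given in the sources used here, so overlapping genes are uncertain. All 6 columns matched samples by label and 0 were unused. The libraries held 10835070 to 14160301 counts. This depth limits genes with few counts, and intervals of single counts cover counting error only.

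The deposited counts were scaled and tested in edgeR 4.0.16 under R 4.3.3 (TMM, filterByExpr with a minimum count of 10, quasi-likelihood fit on genotype, prior count 0.125, Benjamini-Hochberg adjustment over 14550 genes). DESeq2 1.42.0 was an alternative. On simulated counts in which 200 of 14550 genes differed by 2 on the log2 scale, edgeR recovered 186 with 17 false calls. Exon lengths and positions came from GENCODE vM1 on mm9.

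The genes and lists were chosen with earlier results of these data known. The text names the 9 genes, *Mkx*, the 5 genes most like *Cnr1* (1 of them is not reported here), tested genes within 1 Mb of it, up to 5 genes past the test and the 2 most abundant of each pathway list, and counts over marker lists. *Cnrip1*, *Lpar6*, *S1pr3*, list genes at 0 or few counts, *Hrasls*, the marker genes, among them *Thbs4*, *Erg*, *Slc2a4* and the sex-linked genes were named after their values were seen.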

Additional observations from a re-analysis of the deposited data

How the results depend on the processing

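The alternatives were DESeq2 in place of edgeR, scaling by RLE or by upper quartile, a looser filter (1 count in any library), a stricter filter (10 counts throughout), a robust fit, a fit without skeletal muscle markers, a fit with the replicate number as a block, and fits without 1 library. Scaling by library size only was added after seeing the data and raised the median log2 fold change of all genes to 0.25. *Cnr1* stayed between 4.50 and 5.57 in the 14 alternatives that tested it, and the stricter filter removed it. *Cnr1* was chosen for its rise, so it is included in the following counts only as a description. *Faah* passed in all 9 alternatives that kept the 6 libraries and in 1 of the 6 fits without a library. The genes past the threshold upward, *Cnr1* included, were 2 of 9 with all libraries, 1 with the stricter filter, 3 with library size only and 1 to 2 without a library. *Daglb* passed with library size only (log2 fold change 0.61, adjusted p = 0.0496). So did *Spaca1* (1.74, adjusted p = 0.0364), which passed the low-count filter only through its *Mkx*-/- libraries. *Arrb1*, *Plcd3* and *Pm20d2* no longer passed with this scaling (adjusted p = 0.0848, 0.0940 and 0.0730). Near *Cnr1*, 1 gene was therefore higher and 0 lower with it. The other 5 tested genes passed in no alternative run.

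The number of genes past the test was 463 upward and 329 downward, of which 275 and 193 were over 2-fold. With library size only it was 1358 and 197 (711 upward over 2-fold), with DESeq2 761 and 558, and with the looser filter 970 and 594 (541 and 322 over 2-fold). Without 1 library it ranged from 117 to 539 upward and 127 to 439 downward (103 to 321 and 112 to 248 over 2-fold), lowest upward without WT replicate 3. The causes were not tested. With the replicate number as a block it was 264 and 170. Deviations of same-numbered libraries correlated by -0.000308, -0.235 and 0.313. Libraries of different number were not compared, so these values cannot show whether the numbers mark pairs. The block ended the calls of *Gnaz*, *Plcd3*, *Pm20d2* and *Cobll1* (adjusted p = 0.0860, 0.101, 0.0826 and 0.0567). *Gnaz* passed in 1, *Plcd3* in 1 and *Pm20d2* in 0 of the 6 fits without a library, so the number of genes past the test near *Cnr1* was 0 downward and 0 upward there.

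Directions that turned were all of genes that did not pass the test. With library size only the log2 fold change was 0.17 for *Dagla*, 0.18 for *Mgll*, 0.13 for *Abhd4*, 0.038 for *Trpv4*, 0.21 for *Adcy6*, 0.008 for *Ube2j1*, 0.012 for *Pnrc1*, 0.22 for *Akirin2*, 0.013 for *Orc3*, 0.11 for *Rars2* and 0.10 for *Slc35a1*. Over the fits without a library it ranged from -0.301 to 0.013 for *Dagla*, -0.245 to 0.031 for *Mgll*, -0.276 to 0.289 for *Abhd4*, -0.030 to 0.121 for *Gnai2*, -0.106 to 0.023 for *Adcy6*, -0.023 to 0.073 for *Plcd1*, -0.402 to 0.018 for *Pnrc1*, -0.130 to 0.277 for *Gm12350* and -0.077 to 0.324 for *Mob3b*.

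Further metabolic genes went from 0 higher to 1 with DESeq2 (*Hrasls*, a description only). They went to 2 with the looser filter, 3 with library size only and 1 without WT replicate 1. The coupling list went from 2 higher to 4 with DESeq2 and with the looser filter. It went to 1 with the block and without WT replicate 2 or 3 or any 1 *Mkx*-/- replicate. Its lower count of 1 became 2 without WT replicate 1. It became 0 with library size only and without WT replicate 2 or *Mkx*-/- replicate 2 or 3. The phospholipase C list went from 1 lower to 2 with DESeq2. It went to 0 lower with library size only, with the block, and in each fit without a library except that without WT replicate 1. Its higher count of 1 became 2 with library size only and 0 without WT replicate 2 or 3. Related receptors went from 0 higher to 1 with library size only, with the looser filter and without *Mkx*-/- replicate 1.

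With the longest transcript as length, 2 genes changed places in WT (*Abhd6* and *Daglb*) and 2 in *Mkx*-/- tendon (*Napepld* and *Faah*). Genes with about 20 counts or fewer, such as *Cnr2* and *Cnr1* in WT, carry a large counting error.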
